A study of Homo sapiens with 14 samples.

Results

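The line-by-time interaction asked, for each gene, whether the change from the early days (6 and 9) to the late days (12 and 15) of long-term culture was the same in SW620 cells carrying the catalytic domain of TET2 as in control cells. It was taken from all 8 single-cell libraries of the 14 samples in the series. SW620 is an established human colorectal cancer line derived from a lymph node metastasis. The control line carried a FLAG vector (SW620-FLAG, which the labels call SW620), and the other line expressed the TET2 catalytic domain (SW620-TET2CD). Both lines grew as colonies without passage (long-term culture, LTC) in the same medium with serum, and colonies were dissociated and sequenced on days 6, 9, 12 and 15. There was 1 library per line and day and no replicate culture. The reported quantity, here called the term, is the log2 change from early to late days in SW620-TET2CD minus that in SW620-FLAG, so a positive term says that a gene ended relatively higher in TET2CD cells than it started. Its error rests on how far the difference between the lines varied between the 2 days of a stage, not on the spread between cultures. The fit drew this error largely from other genes, so it is not the spread of the gene alone. Beside other bulk samples, the series holds bulk RNA of day 15 colonies of both lines, which is used at the end.

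TET2 is a dioxygenase that oxidises 5-methylcytosine in DNA and so opens a route to demethylation. Its catalytic domain alone keeps that activity but lacks the amino-terminal part of the protein. SW620 colonies first grow as compact multilayered clusters, and in long culture growth slows and cells leave the colony edge. In dense cultures low oxygen stabilises hypoxia-inducible factors (HIF), which bind the core sequence ACGTG beside target genes. Cell cycle exit lowers the E2F target genes of DNA replication, and AP-1 and NF-kB are signal-driven transcription factors that act on genes of adhesion, proteolysis and inflammation.

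After cells with 200 to 4500 genes, 1000 to 20000 unique molecular identifiers (UMIs) and at most 10% mitochondrial UMIs were kept, 48282 of 67056 barcodes remained, 3894 to 8154 per library. Their UMIs were summed to 48186195 to 74185723 per library. Median UMIs per kept cell ranged from 6640 (FLAG, day 9) to 13479 (FLAG, day 6), and the share of barcodes over the mitochondrial limit ranged from 6.42% to 28.8% (FLAG, day 9). Neither measure was higher in all libraries of 1 line or of 1 stage. On days 6, 9, 12 and 15 this share was 6.42%, 28.8%, 12.0% and 15.5% in FLAG and 6.58%, 19.9%, 16.6% and 26.7% in TET2CD. The share in TET2CD minus that in FLAG was thus larger on both late days than on both early days, the direction of a positive term. Other cell limits were tried, and with a mitochondrial limit of 20% no gene was called. Beyond that, the part of these measures in the results was not tested. Any pair of libraries shared 11 to 31 cell barcodes, at most 0.4397% of either library. The epithelial markers EPCAM, KRT8, KRT18, KRT19, CDX2 and VIL1 were measured in every library, with EPCAM between 468.6 and 677.9 CPM (UMIs of a gene scaled to a common library total). Of 18 markers of fibroblast, immune, endothelial and neural cells, all summed to 29.6 to 69.5 CPM per library before TMM scaling (library factors that correct for composition), of which LUM made up 4.31 to 27.2, LYZ 5.32 to 31.5 and CD68 1.20 to 36.9 CPM. The 15 others summed to 2.64 to 6.45 CPM, and the immune markers PTPRC and CD3E did not exceed 0.0591 CPM, on this unscaled measure. CPM of tested genes below are scaled by TMM factors, while those of genes with too few UMIs to test and the 3-count level are not.

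The transgene was present throughout in SW620-TET2CD. Counts of TET2, which take in the transgene, came to 111, 59.9, 37.9 and 36.3 CPM in the TET2CD libraries of days 6, 9, 12 and 15, against 2.24, 2.46, 3.73 and 3.16 CPM in FLAG cells. Every TET2CD library thus lay above every FLAG library, and the gap was narrower on both late days. The share of kept cells with a TET2 UMI was 27.9%, 24.1%, 19.6% and 17.2% in TET2CD cells on these days, and 1.65% to 4.68% in FLAG cells, which sets the background. The term of TET2 (chr4:105145875-105279816, GRCh38, plus strand) was -1.71 with a standard error of 0.29, and did not pass the threshold of 0.05 (adjusted p = 0.111, from the quasi-likelihood test of edgeR, adjusted by Benjamini-Hochberg across every gene tested). DESeq2 called it on the same counts (term -1.70, adjusted p = 0.00254), as did edgeR with no filter on low counts (adjusted p = 1.46e-08). In edgeR it was not called with upper-quartile factors, with no day term or with day as a number. Nor was it called with every barcode, no upper limits, a mitochondrial limit of 20% or only cells low in cell-cycle UMIs. Within the TET2CD line, the measured TET2 level was thus lower in both late libraries than in both early ones, while its term was called in only some fits.

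Of 17478 genes tested, 1 passed the threshold, NDUFA4L2, which rose more in TET2CD cells. This is 0.00572% of the tested genes, and no gene passed in the lower direction. At an unadjusted p under 0.05, 506 genes (2.9%) had a positive and 441 (2.52%) a negative term. DESeq2 called 9 genes (0.0715%) on the same counts, 4 of them positive. Below, a gene is said to be called without a tool named only where edgeR called it with all 8 libraries, and DESeq2 calls are given as such. Here and below the difference between the lines keeps its sign, as TET2CD minus FLAG. Larger thus means higher and smaller means lower, whatever the width of the gap. For 2891 genes (16.5%) the difference between the lines was larger on both late days than on both early days, and for 2826 (16.2%) it was smaller on both. These last shares are the background for every such count given for a gene group. The median term over all tested genes was -0.01.

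The 2 late days differed from each other. Among the 8714 genes with a mean of at least 8 CPM, the difference between the lines shifted by a median of 0.30 log2 units from day 12 to day 15, against 0.13 from day 6 to day 9, and the median size of the term was 0.14. For 2110 of these genes the difference moved by over 0.5 log2 units between days 12 and 15, and for 248 between days 6 and 9. The TMM factors were 0.9285 in FLAG and 1.149 in TET2CD on day 15, against 1.046 and 1.059 on day 12. A higher factor lowers the CPM of its library, and the part of these factors in the shift was not tested. When a library was left out, the other library of that day no longer bore on the term, and the count of calls depended on the day. Without FLAG day 12 it was 2279, with 602 positive (3.31% of all genes tested) and 1677 negative (9.22%), and it was 1960 without TET2CD day 12. Without FLAG day 15 it was 478, with 363 positive (1.99%) and 115 negative (0.632%), and it was 405 without TET2CD day 15. These percentages are the background for the calls that gene groups had in the same fits. Without a day 12 or day 15 library, the term set the other late day against the early days. The error then came from the early days alone and left out the larger shift between days 12 and 15. Calls in these fits, here and for the gene groups below, therefore do not compare with those from all 8 libraries. Without a day 6 library it was 9 (FLAG) and 11 (TET2CD), and it was 20 without either day 9 library. NDUFA4L2 was not called without a day 9 library (term 2.06, adjusted p = 0.618 without FLAG day 9; 2.07, adjusted p = 0.604 without TET2CD day 9, edgeR). Of 88 genes followed one by one through these fits, 53 had a term that moved by over 1.5 times when 1 of the 8 libraries was left out, and 11 of these changed sign. Among the terms that moved less were those of NDUFA4L2 (1.92 to 2.25), FAM111B (1.17 to 1.35), BLM (0.85 to 0.93), XRCC2 (0.90 to 1.05), SERPINE2 (-1.26 to -0.95) and PLAUR (-1.43 to -0.92). Some of these genes were chosen for line differences that did not overlap between stages, which favours small ranges. Ranges for single genes below are over the same 8 fits.

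Genes with large changes over time mostly had the smaller change in TET2CD cells. Of the 503 genes with at least 8 CPM whose change averaged over the lines was at least 1 log2 unit upward, 371 (73.8%) had the smaller change in TET2CD. The median change of these genes was 1.50 in FLAG and 1.30 in TET2CD. Of the 1105 genes with an average change of at least 1 log2 unit downward, 804 (72.8%) had the smaller change in TET2CD, with medians of -1.40 and -1.31. Genes selected in this way could hardly differ in sign between the lines. Of all 8714 genes, 56.3% had the smaller change in TET2CD, and 790 had changes of opposite sign. Only 15 of the 8714 genes had a term larger than 1 log2 unit in size. The hypoxia targets were on the other side, as 3 of the 17 that went up this far had the smaller change in TET2CD.

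**Figure D1:**
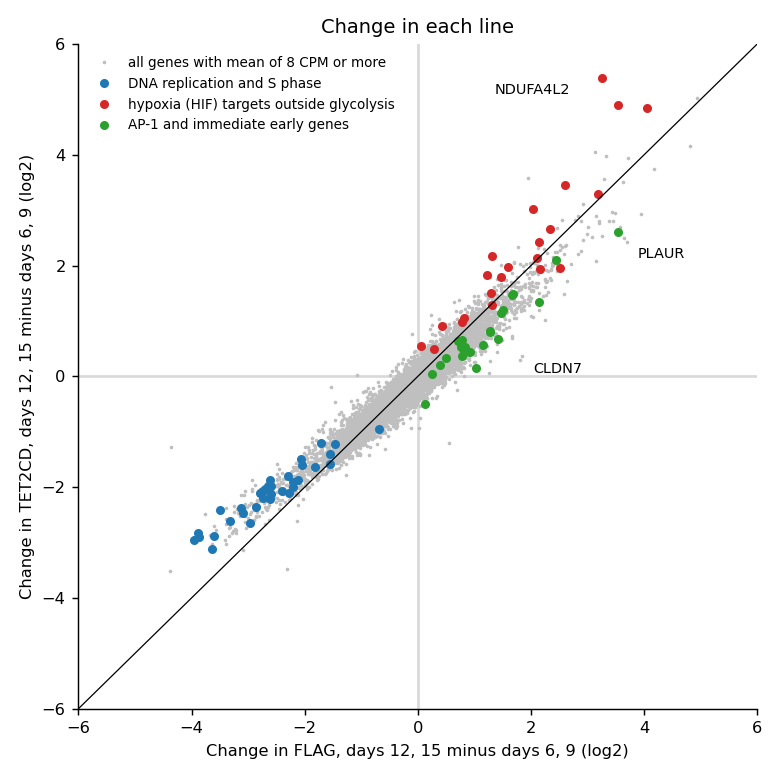
Change from days 6 and 9 to days 12 and 15 (log2) in SW620-FLAG (horizontal) and SW620-TET2CD (vertical) for the 8714 genes with a mean of at least 8 CPM; the diagonal marks equal change. Replication genes (blue, lower left) lie mostly above the diagonal, AP-1 genes (green) lie mostly below it, and hypoxia targets (red) lie mostly above it, with NDUFA4L2 at 3.26 and 5.39.

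NDUFA4L2 encodes a mitochondrial protein induced by HIF that restrains complex I activity in low oxygen. In FLAG cells it was measured at 0.273, 7.02, 47.3 and 21.3 CPM on days 6, 9, 12 and 15, and in TET2CD cells at 0.141, 3.58, 115 and 41.8 CPM. It was lower in TET2CD than in FLAG cells on both early days and higher on both late days, so the lines crossed between day 9 and day 12. The log2 difference between the lines was -0.88, -0.97, 1.28 and 0.97 on the 4 days. The term was 2.10 with a standard error of 0.25 (adjusted p = 0.0115, edgeR), a 4.28-fold larger increase in TET2CD. The change within each line was 3.26 in FLAG and 5.39 in TET2CD. The gene lies on the minus strand at chr12:57234903-57240715 (GRCh38) and codes for protein.

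NDUFA4L2 belongs to a list of 28 hypoxia targets outside glycolysis, of which 27 were tested. It was the 1 member called. The median term of the list was 0.30, and 23 of 27 terms were positive. The difference between the lines was larger on both late days than on both early days for 13 of 27, and smaller on both for 1. At an unadjusted p under 0.05, 8 members were positive and 1 negative. The median change over time was 1.60 in FLAG and 1.96 in TET2CD, both positive. The median term depended on the days used. It was 0.52 without either day 6 library, 0.10 without FLAG day 9 and 0.11 without TET2CD day 9. Without FLAG day 12, 6 members were called positive and 1 negative, and without FLAG day 15 these counts were 8 and 1. LOX, which crosslinks collagen, was the member with too few UMIs to test, at 0.176 CPM or less in every library.

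Of the targets that adjust metabolism and acidity, PDK1, the kinase that keeps pyruvate out of the mitochondrion, stood at 7.66, 12.5, 30.0 and 20.2 CPM in FLAG and at 6.03, 8.87, 38.7 and 29.0 CPM in TET2CD on days 6, 9, 12 and 15. It was lower in TET2CD on both early days and higher on both late days (term 0.87, standard error 0.19, adjusted p = 0.339, edgeR). CA9, a membrane carbonic anhydrase that exports acid, stood at 28.2, 34.9, 220 and 162 CPM in FLAG and at 12.9, 17.8, 225 and 111 CPM in TET2CD. The CA9 libraries of the lines differed on the early days and met on day 12 (term 0.80, range 0.48 to 1.08, standard error 0.25, adjusted p = 0.612, edgeR).

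Of the oxygen sensors, EGLN3, a prolyl hydroxylase that marks HIF for decay, stood at 13.8, 28.8, 103 and 71.7 CPM in FLAG and at 10.3, 11.9, 118 and 62.4 CPM in TET2CD. EGLN1, the main such enzyme, varied less, between 14.5 and 21.5 CPM in FLAG and between 13.6 and 26.6 CPM in TET2CD, with terms of 0.85 and 0.46 for the pair, neither called. EGLN3 was below FLAG on days 6, 9 and 15, and its term ranged from 0.41 without FLAG day 9 to 1.26 without a day 6 library. PLOD2, which hydroxylates collagen lysines, reached 18.0 and 11.1 CPM on the late days in FLAG and 27.4 and 18.9 CPM in TET2CD (term 0.61). DDIT4, an inhibitor of mTOR signalling, and NDRG1, a stress-response gene, had terms of 0.95 and 0.64 but large standard errors of 0.47 and 0.42. Both were far lower in TET2CD than in FLAG on day 9, DDIT4 at 9.39 against 35.2 CPM and NDRG1 at 1.35 against 2.95 CPM, and their terms rested on that day. Without a day 9 library the term of DDIT4 was 0.0737 (FLAG left out) and 0.0842 (TET2CD left out), and that of NDRG1 was negative, at -0.70 and -0.69.

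The angiogenic ligand VEGFA, a HIF target and a gene followed by the study, did not share this pattern. It stood at 8.32, 14.5, 96.5 and 109.9 CPM in FLAG and at 6.71, 9.23, 70.3 and 86.1 CPM in TET2CD, lower in TET2CD on all 4 days, and its term was 0.08 with a standard error of 0.21.

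The promoters of 2 members are shown because they carry the HIF core sequence and their genes had terms among the higher ones of the list. RefSeq promoter windows of 300 bases (GRCh38.p14, written 5′ to 3′ on the gene's strand) were searched for ACGTG on both strands, so matches appear as ACGTG or as CACGT, in capitals. CA9 (chr9:35673678-35673977, plus strand) held 1 match and the second of 2 PDK1 windows (chr2:172555840-172556139, plus strand) held 2.
CA9: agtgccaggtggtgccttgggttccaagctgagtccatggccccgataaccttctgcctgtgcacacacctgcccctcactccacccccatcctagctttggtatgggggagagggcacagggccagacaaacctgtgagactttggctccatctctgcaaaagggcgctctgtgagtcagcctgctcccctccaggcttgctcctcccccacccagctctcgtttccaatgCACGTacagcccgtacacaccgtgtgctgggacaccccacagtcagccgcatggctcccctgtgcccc
PDK1: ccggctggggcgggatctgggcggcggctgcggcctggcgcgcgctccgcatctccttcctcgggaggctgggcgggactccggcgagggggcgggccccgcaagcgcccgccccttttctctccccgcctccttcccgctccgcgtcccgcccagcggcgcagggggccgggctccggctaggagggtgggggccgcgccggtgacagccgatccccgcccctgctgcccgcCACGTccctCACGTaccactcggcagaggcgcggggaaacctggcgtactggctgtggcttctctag
Of the 28 hypoxia targets 22 had entries, with 32 windows, of which 20 (62.5%) held ACGTG, against 21.4% of all 35116 promoter windows. Glycolysis genes held it in 17 of 47 windows (36.2%) and AP-1 genes in 8 of 24 (33.3%). The single EGLN3 window, a gene with a term above that of CA9, and the first PDK1 window held none. A match describes the sequence and does not show binding.

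Glycolysis is the other large group of HIF targets. All 24 listed genes were tested and none was called. The median term was 0.15, with 21 of 24 positive, 7 with a larger line difference on both late days than on both early days and 1 at an unadjusted p under 0.05. The median was -0.07 without FLAG day 12, 0.01 without FLAG day 9 and 0.39 without FLAG day 15, and the difference from the other hypoxia targets was not tested. The gene at an unadjusted p under 0.05 was PFKFB4, which makes the activator of phosphofructokinase, at 2.09, 5.503, 13.1 and 9.56 CPM in FLAG and 2.04, 3.05, 16.2 and 11.1 CPM in TET2CD (term 0.73, range 0.27 to 1.10). LDHA, which makes lactate, and PGK1, which makes ATP from bisphosphoglycerate, were both above FLAG on day 12 and below it on day 15. LDHA stood at 1233 and 933 CPM in FLAG on these days and at 1642 and 749 CPM in TET2CD.

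**Figure D2:**
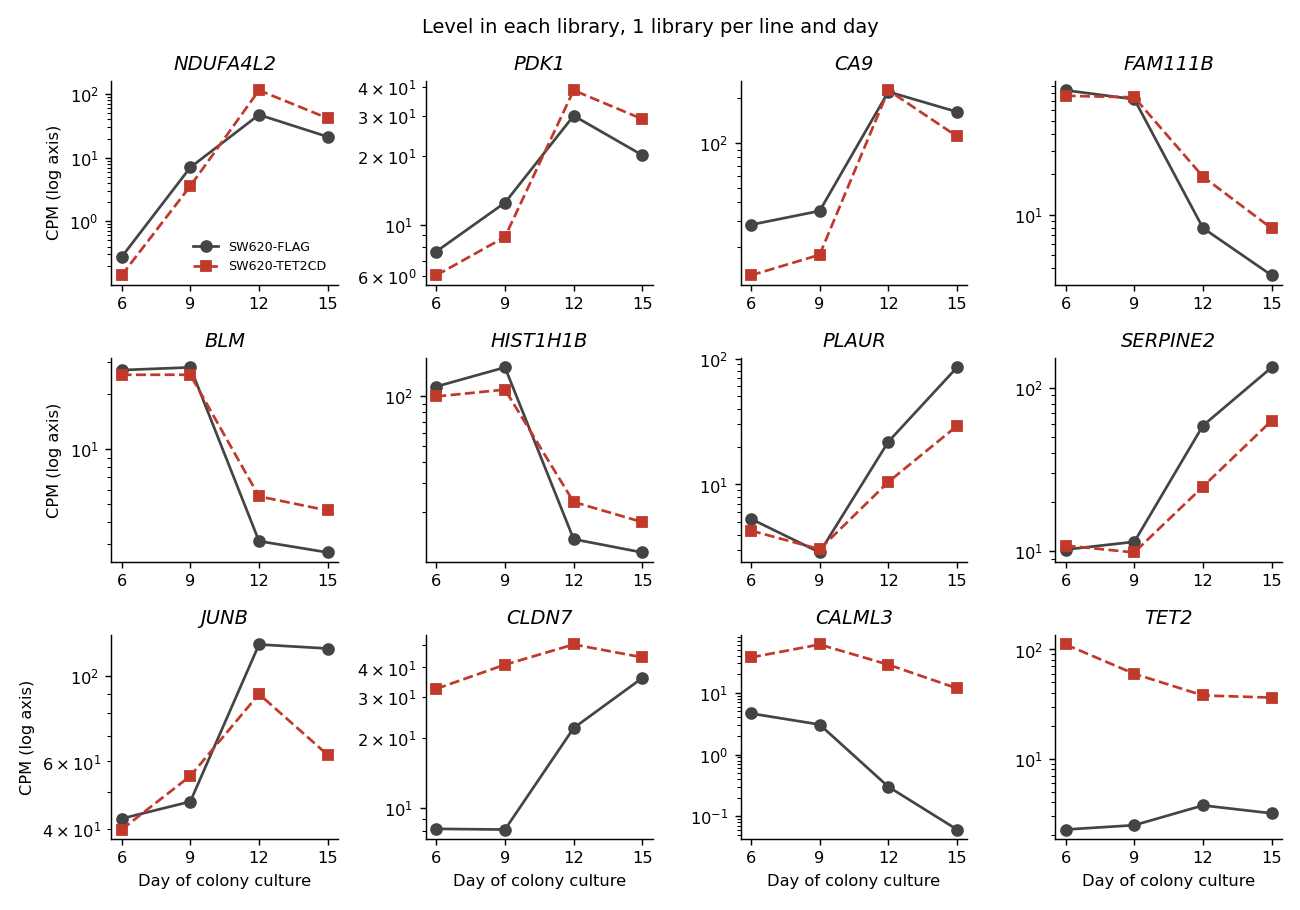
CPM (log axis) on days 6, 9, 12 and 15 of colony culture for 12 genes, with 1 library per point, FLAG as circles and TET2CD as squares. The lines of NDUFA4L2 and PDK1 cross between day 9 and day 12, those of FAM111B and BLM separate on the late days with TET2CD above, HIST1H1B in TET2CD is below FLAG on the early days and above it on the late days, and those of PLAUR and SERPINE2 separate there with TET2CD below.

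The 37 genes of DNA replication and S phase had a median term of 0.52. Of these, 35 were positive, 20 had a larger difference between the lines on both late days than on both early days, and 17 reached an unadjusted p under 0.05, all positive. None was called by the adjusted test. Their median change over time was -2.65 in FLAG and -2.08 in TET2CD. Of the 33 members with at least 8 CPM and an average change of at least 1 log2 unit downward, 32 had the smaller change in TET2CD.

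CDC6 had the highest term of the list and CLSPN one above its median. CDC6, which loads the MCM helicase on origins, stood at 49.4, 39.2, 4.01 and 3.85 CPM in FLAG and at 45.2, 39.1, 10.5 and 5.26 CPM in TET2CD (term 1.00, range 0.49 to 1.46, standard error 0.26, adjusted p = 0.412, edgeR). The lines were alike on days 6 and 9, and TET2CD was higher on both late days, by more on day 12. CLSPN, which relays replication stress to CHK1, stood at 129, 105, 7.65 and 7.44 CPM in FLAG and at 129, 106, 20.7 and 9.76 CPM in TET2CD (term 0.92, range 0.36 to 1.43). The helicase subunits followed at smaller terms, with GINS2 at 0.85 (range 0.27 to 1.35), CDC45 at 0.88, MCM4 at 0.66 and MCM5 at 0.62. RPA2, a single-strand binding subunit, was the lowest at -0.24.

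The separation of the lines was concentrated on day 12. The median difference of the replication list between the lines was -0.08, -0.04, 0.79 and 0.12 on days 6, 9, 12 and 15. Without the FLAG day 15 library 30 of the 37 genes were called positive, and without the FLAG day 12 library 1 was called positive and 1 negative. The shares of all genes called in these fits, and the limit on their error, are given above. The median term of the list was 0.84 without FLAG day 15 and 0.19 without FLAG day 12.

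The mitosis list went further in this way. Its median difference between the lines was 0.18, -0.27, 1.06 and -0.27 on days 6, 9, 12 and 15, and its median term over the 34 tested genes was 0.36. Although 32 of 34 terms were positive, only 3 had a larger difference on both late days than on both early days, and 2 reached an unadjusted p under 0.05 (CENPF and BUB1B). Without the FLAG day 15 library 31 of 34 were called positive, against 1.99% of all genes. Without the FLAG day 12 library 8 were called negative, against 9.22% of all genes, and none positive. MKI67, the Ki-67 proliferation antigen, stood at 192, 263, 17.7 and 40.5 CPM in FLAG and at 231, 217, 39.9 and 40.7 CPM in TET2CD. The lines thus differed on day 12 and were close on day 15, and no single direction described the late stage for mitosis.

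Among replication-dependent histones the median difference between the lines was 0.31 and 0.32 on days 12 and 15, against 0.01 and -0.24 on days 6 and 9, and the median term of the 15 tested genes was 0.48. It was 0.28 without FLAG day 12 and 0.29 without FLAG day 9. The difference was larger on both late days than on both early days for 9 of 15. HIST1H1B, a linker histone, stood at 114, 149, 13.7 and 11.4 CPM in FLAG and at 99.5, 109.4, 23.0 and 17.4 CPM in TET2CD (term 1.00, standard error 0.22, adjusted p = 0.336, edgeR). HIST1H4C, a core histone with far more UMIs, had a term of 0.03. Replication-dependent histone messages mostly lack poly(A) tails, which 3′ libraries need, so these counts cover part of the messages.

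Among the 16 transcription factors and cyclins of the cycle, the median term was 0.22 and none was called. The median was 0.07 without FLAG day 6 or FLAG day 12, 0.35 without FLAG day 9, and 0.46 with 4 called positive without FLAG day 15. At an unadjusted p under 0.05 there were 3, all positive. CCNE2, a cyclin of S phase entry, had a term of 1.18 (standard error 0.31), and stood at 1.28 and 0.469 CPM in FLAG on the late days against 2.39 and 1.33 CPM in TET2CD. E2F1 and MYBL2, transcription factors of S phase genes, had terms of 0.63 (range 0.0599 to 1.10) and 0.77 (range 0.0821 to 1.39) and were close in both lines on day 15. CCND1, the G1 cyclin followed by the study, had a term of -0.25. Of the CDK inhibitors, CDKN1A (p21) stood at 3.86 and 12.8 CPM on the late days in FLAG and at 2.94 and 6.50 CPM in TET2CD, with 1.83 to 2.08 CPM in the 4 early libraries (term -0.76, standard error 0.27, adjusted p = 0.741, edgeR). The 23 CDK inhibitors and p53 targets had a median term of -0.14, with 17 negative. Their median was -0.40 with 6 called negative and 1 positive without FLAG day 12, and 0.05 without FLAG day 15.

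Outside the lists are the DNA repair and replication genes FAM111B, BLM and XRCC2, named after their values were seen. Each was higher in TET2CD on both late days. The choice of genes partly fixed this, as FAM111B and XRCC2 were taken from genes whose line differences did not overlap between stages. FAM111B, a protease of replicating cells, stood at 84.3, 72.3, 7.93 and 3.53 CPM in FLAG and at 76.7, 74.7, 19.2 and 7.89 CPM in TET2CD. Its term was 1.27 with a standard error of 0.21 (adjusted p = 0.108, edgeR), and DESeq2 called it (adjusted p = 0.00276). The helicase BLM stood at 27.2, 28.2, 3.13 and 2.71 CPM in FLAG and at 25.6, 25.7, 5.51 and 4.61 CPM in TET2CD (term 0.90), and XRCC2, which acts in recombination repair, stood at 29.4, 30.1, 3.24 and 3.55 CPM and at 26.7, 27.8, 6.16 and 6.18 CPM (term 0.99). In each case TET2CD was within 0.14 log2 units of FLAG on both early days and 0.76 to 1.27 log2 units above it on both late days.

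A count of cells was also made. Cells with under 0.3% of their UMIs from the 4 cell cycle lists made up 82.8% of FLAG and 69.6% of TET2CD cells on day 12, and 85.2% and 80.0% on day 15, against 9.09% to 17.5% in the early libraries. Cells were not thinned to 1 depth for this count, and median depths on day 12 were 13110.5 UMIs in FLAG and 12379 in TET2CD. In library sums, fewer cells expressing a gene and less RNA per cell cannot be told apart. With these low-cycle cells alone, 14 genes (0.0889%) were called. The median term of the replication list was then 0.08, which the choice of cells by these same genes partly fixes, and that of the hypoxia targets was 0.62. NDUFA4L2 was again called (term 2.47, adjusted p = 4.04e-05, edgeR), as were EGLN3 (1.70, adjusted p = 0.00206) and PFKFB4 (1.72, adjusted p = 0.027). BLM had a term of 0.27, and CLSPN of -0.13.

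**Figure D3:**
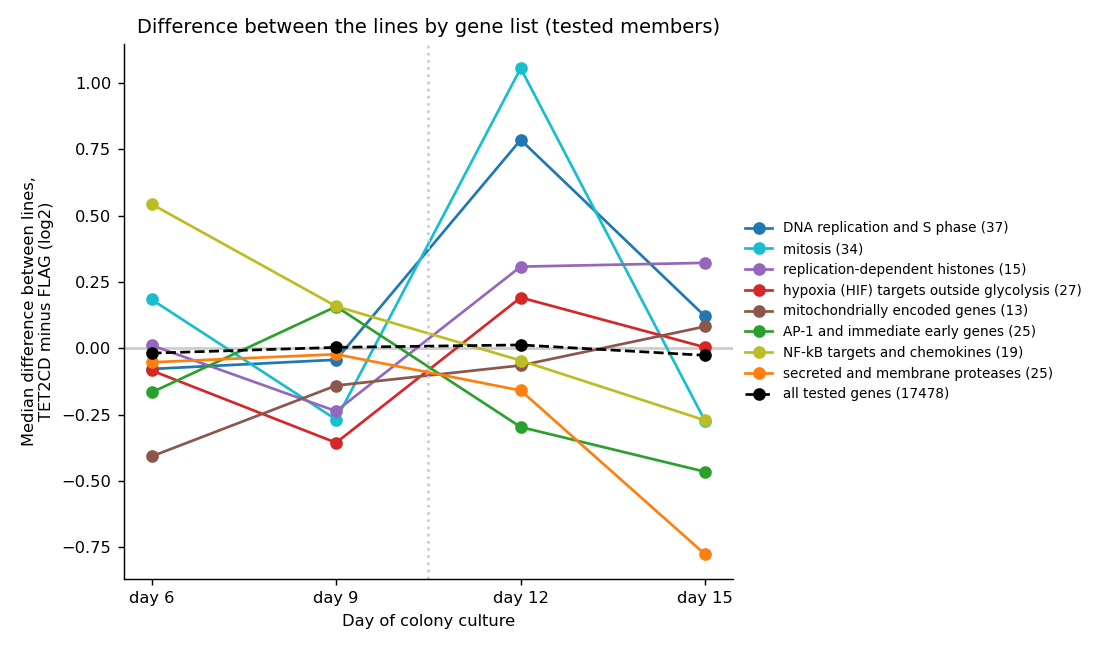
Median log2 difference between the lines (TET2CD minus FLAG) of the tested members of 8 gene lists on days 6, 9, 12 and 15, with the number of members in brackets; the dotted line divides early from late days. Mitosis stands at 1.06 on day 12 and -0.27 on day 15, histones stay near 0.31 on both, and proteases go from -0.16 to -0.78.

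The AP-1 and immediate early genes had mostly negative terms. All 25 were tested, 24 had a negative term and none was called. The median term was -0.30, and 13 had a lower signed difference between the lines on both late days than on both early days. At an unadjusted p under 0.05 there were 8, all negative. The members went up over time by a median of 0.92 in FLAG and 0.64 in TET2CD. All 10 that went up by an average of at least 1 log2 unit did so less in TET2CD. The median term lay between -0.43 and -0.18 when any library was left out.

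JUNB, an AP-1 subunit, stood at 42.6, 47.2, 121 and 118 CPM in FLAG and at 39.9, 55.0, 89.8 and 62.4 CPM in TET2CD on days 6, 9, 12 and 15 (term -0.74, standard error 0.24, adjusted p = 0.641, edgeR). ZFP36, which destabilises cytokine messages, had the lowest term of the list, -0.97 (range -1.63 to -0.41). IER5, an early response gene, had a term of -0.85, and DUSP5, a phosphatase that restrains ERK, of -0.88 (range -1.32 to -0.43). IER5 was higher in TET2CD on the early days, with 17.1 and 14.8 CPM in FLAG against 21.2 and 18.7 CPM, and lower on the late days, with 24.3 and 41.0 CPM in FLAG against 19.8 and 24.5 CPM. JUN itself, which the study also followed, had a term of -0.24 (standard error 0.26).

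The urokinase receptor PLAUR, which holds the protease urokinase at the cell surface, stood at 5.33, 2.89, 21.9 and 85.1 CPM in FLAG and at 4.30, 3.06, 10.5 and 29.2 CPM in TET2CD. The lines overlapped on the early days and TET2CD was lower on both late days (term -1.18, standard error 0.23, adjusted p = 0.196, edgeR). SERPINE2, an inhibitor of thrombin and urokinase, stood at 10.2, 11.4, 58.7 and 133 CPM in FLAG and at 10.8, 9.83, 24.9 and 63.0 CPM in TET2CD. Its term was -1.09 with a standard error of 0.21 (adjusted p = 0.173, edgeR), and DESeq2 called it (adjusted p = 0.0417). SERPINE2, which is on none of the lists, was named after its values were seen.

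Secreted and membrane proteases and their inhibitors had a median term of -0.39, with 22 of 25 tested members negative and none called. For 11 the signed difference between the lines was lower on both late days than on both early days. KLK10, a kallikrein, reached 3.92 and 9.99 CPM on the late days in FLAG and 1.41 and 2.85 CPM in TET2CD, from under 1 CPM in all early libraries (term -1.62, range -2.38 to -0.85, standard error 0.41, adjusted p = 0.382, edgeR). PRSS22, a tryptase-like protease, reached 7.86 and 21.9 CPM in FLAG and 6.02 and 12.2 CPM in TET2CD (term -0.77). The trypsinogen PRSS2, whose reads may be shared with its paralogs, was lower in TET2CD on all 4 days and had a term of -0.50. Of the 3 positive members, the trypsinogen PRSS1 had the highest term, 5.14 with a standard error of 1.97, but did not exceed 0.922 CPM in any library and may share reads with its paralogs, and PLAT, the tissue plasminogen activator, had 0.59. The third was the coagulation protease F10, at 88.7 and 33.5 CPM in FLAG and 98.8 and 36.1 CPM in TET2CD on the late days (term 0.54). The list's median difference between the lines was -0.16 on day 12 and -0.78 on day 15, and the median term was -0.56 without FLAG day 12 and -0.14 without FLAG day 15.

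The promoter of PLAUR is shown because this gene had the lowest term of the EMT list. It was searched for the AP-1 motif TGANTCA, which reads the same on both strands, with the match in capitals. The PLAUR window (chr19:43670120-43670419, GRCh38.p14, minus strand) held 1 match.
PLAUR: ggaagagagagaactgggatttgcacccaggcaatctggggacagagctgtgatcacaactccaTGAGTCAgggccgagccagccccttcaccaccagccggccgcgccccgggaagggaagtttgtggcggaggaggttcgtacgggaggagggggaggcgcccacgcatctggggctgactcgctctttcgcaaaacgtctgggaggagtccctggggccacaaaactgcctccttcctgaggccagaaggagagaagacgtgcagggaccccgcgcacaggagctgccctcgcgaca
The motif was in 6 of 22 windows of the protease list (27.3%, 17 of its 26 genes with an entry), in 1 of 24 of the AP-1 list (4.17%) and in 7.71% of all windows. Neither SERPINE2 window held it, nor did the ITGB7 window.

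The NF-kB targets and chemokines had a median term of -0.29, with 16 of 19 tested members negative and none called. For 10 the signed line difference was lower on both late days than on both early days. The median was -0.59 without FLAG day 9 and -0.45 without FLAG day 12. The list started higher in TET2CD, with median differences between the lines of 0.54, 0.16, -0.05 and -0.27 on days 6, 9, 12 and 15. IL32, a cytokine, stood at 2.66, 1.13, 3.84 and 14.7 CPM in FLAG and at 11.8, 2.19, 4.14 and 8.18 CPM in TET2CD. Its term was -2.10 (range -2.63 to -1.36, standard error 0.37, adjusted p = 0.111, edgeR), and DESeq2 called it (adjusted p = 0.0222). TET2CD was thus higher on the first 3 days and lower on day 15. RELB, a subunit of NF-kB, had a term of -0.73 and the chemokine CXCL16 of -0.86. NFKB1 went the other way at 0.26.

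Genes of epithelial-mesenchymal transition (EMT) and adhesion had median terms of -0.23 (19 tested, 15 negative) and -0.11 (23 integrins and matrix genes, 16 negative, -0.23 without FLAG day 9). None was called. CD44, a hyaluronan receptor and WNT target, stood at 10.1, 7.88, 6.76 and 11.5 CPM in FLAG and at 10.6, 7.96, 4.77 and 5.02 CPM in TET2CD (term -0.91, range -1.27 to -0.55). The hemidesmosome integrin ITGB4 and its ligand chain LAMA3 had terms of -0.52 and -0.58, and the proteoglycan SDC4, a coreceptor of integrins, of -0.76. Without the FLAG day 12 library 8 of the 19 EMT genes were called negative and 1 positive, against 9.22% and 3.31% of all genes, and the median was -0.62. Without the FLAG day 15 library 2 were called negative and 1 positive, and the median was -0.07. ITGB7, a leukocyte integrin chain outside the list, named after its values were seen, was lower in TET2CD on all days and more so late, at 21.8 and 62.1 CPM in FLAG against 9.26 and 19.5 CPM (term -0.98).

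Of the study's own 15 EMT, WNT and TET2 target genes, 14 were tested and none was called, with a median term of -0.13. The median was -0.25 with 2 called positive and 1 negative without FLAG day 12, -0.07 without FLAG day 15 and -0.08 without FLAG day 9. CDH1, the adherens junction cadherin, stood at 26.2, 30.8, 58.3 and 101 CPM in FLAG and at 32.8, 39.2, 69.7 and 104 CPM in TET2CD, higher in TET2CD on every day (term -0.19, standard error 0.21). VIM, the mesenchymal intermediate filament, was close in both lines on day 12 (313 and 301 CPM) and lower in TET2CD on day 15 (455 and 202 CPM), with a term of -0.33 that was 0.22 without FLAG day 15 and 0.23 without TET2CD day 15. The EMT transcription factors ZEB1 and SNAI1 had terms of 0.04 and -0.10. EPCAM, TGFB1, PPARD and CTNNB1 lay between -0.23 and 0.05, TCF7L1 was at 0.37 and FN1 at 0.43, and SPARC had at most 0.0271 CPM and was not tested.

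RORA, a nuclear receptor followed by the study as a TET2 target, had the highest term of the group. It stood at 4.46, 4.12, 7.12 and 3.95 CPM in FLAG and at 3.16, 3.19, 8.73 and 6.71 CPM in TET2CD. TET2CD was lower on both early days and higher on both late days (term 0.95, standard error 0.24, adjusted p = 0.382, edgeR). DESeq2 did not call it either (adjusted p = 1). Of the 16 tested clock genes and nuclear receptors, RORA was the 1 with an unadjusted p under 0.05 in the positive direction, and the median term was 0.03. With any 1 library left out this median was between -0.0890 and -0.0105. The 27 WNT targets and antagonists had a median term of 0.05, with 15 positive (-0.03 without FLAG day 6, 0.17 without FLAG day 9).

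Of the 14 TET and DNA methylation enzymes edgeR called none and DESeq2 called TET2. UHRF1, which brings DNMT1 to replicating DNA, had a term of 0.75 (range 0.42 to 1.03, standard error 0.23, adjusted p = 0.604, edgeR), at 6.41 and 5.42 CPM on the late days in FLAG and 14.2 and 7.99 CPM in TET2CD. DNMT1, the maintenance methyltransferase, was at 0.34 (range 0.0480 to 0.61), TET1 at 0.30, TET3 at 0.25 and DNMT3B at 0.47. Imprinted and germline genes had 12 of 28 members tested and a median term of -0.07 (-0.29 without FLAG day 12). H19, an imprinted RNA, was at or below 0.283 CPM in every FLAG library and between 3.84 and 26.3 CPM in TET2CD, so its term of -1.96 had a standard error of 0.81.

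Mitochondrial and ribosomal genes showed terms that ran mostly the same way across a list. The 13 mitochondrially encoded genes had a median term of 0.40, with 12 positive and 9 with a larger line difference on both late days. MT-ND5, a subunit of complex I, stood at 418, 665, 621 and 635 CPM in FLAG and at 314, 537, 568 and 966 CPM in TET2CD. This gene set was also the one used to remove cells, and barcodes over the limit were 12.0% and 15.5% in FLAG and 16.6% and 26.7% in TET2CD on the late days; their part in this difference was not tested. With the limit set at 20% the median term was 0.52, and it was 0.22 without FLAG day 15, 0.23 without TET2CD day 15 and 0.28 without either day 6 library. The 42 nuclear subunits of oxidative phosphorylation had a median term of -0.16 (38 negative), and the 31 cytosolic ribosomal proteins of -0.17 (31 negative). The TMM factors of the lines differed most on day 15, and their part in these medians was not tested. Both medians were near or above 0 without a day 15 library, at 0.11 and 0.00 without FLAG and 0.12 and 0.01 without TET2CD. Without FLAG day 12 they were -0.45 and -0.37, with 21 of 42 and 3 of 31 members called negative, against 9.22% of all genes.

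The remaining lists had medians between -0.31 and 0.19. None had a member called by edgeR, and DESeq2 called HSPA1A of the chaperones and CLDN7 of the junction genes. Medians of several lists turned with the late day used. Without FLAG day 12 and without FLAG day 15 they were -0.36 and 0.20 for ATF4 stress response genes, -0.35 and 0.15 for NRF2 targets, -0.37 and 0.07 for autophagy and lysosome, -0.24 and 0.16 for chaperones and -0.43 and 0.23 for metallothioneins. Intestinal differentiation genes were at -0.31 (-0.17 without FLAG day 15) and interferon response and MHC class I genes at -0.21, with 23 of 31 negative (-0.11 without FLAG day 15). HLA-E, a ligand of natural killer cell receptors, went from 15.6 and 18.6 CPM on the early days to 50.6 and 71.1 CPM on the late days in FLAG, and from 22.6 and 19.1 to 42.4 and 60.4 CPM in TET2CD (term -0.53). Cholesterol and fatty acid synthesis stood at 0.19, with 21 of 26 positive. Its median was 0.50 with 8 called positive without FLAG day 15, and -0.16 with 5 called negative and 1 positive without FLAG day 12. ELOVL6, which elongates saturated fatty acids, was lower in TET2CD on the early days and higher on the late days, at 8.59 and 8.44 CPM in FLAG against 10.98 and 12.1 CPM (term 0.60). The 11 tested markers of other cell types had a median of -0.30 and terms from -1.13 to 3.52. The median was -0.13 without a day 6 library and -0.48 without FLAG day 9. The lowest was that of the lysosomal protein CD68, which macrophages carry at high levels, at 39.8 CPM on day 15 in FLAG and 13.4 CPM in TET2CD. The highest was that of DCN, a matrix proteoglycan, which did not exceed 0.375 CPM. The lysozyme LYZ was higher in TET2CD on every day (term -0.80). The part of these markers in the other results was not tested.

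**Figure D4:**
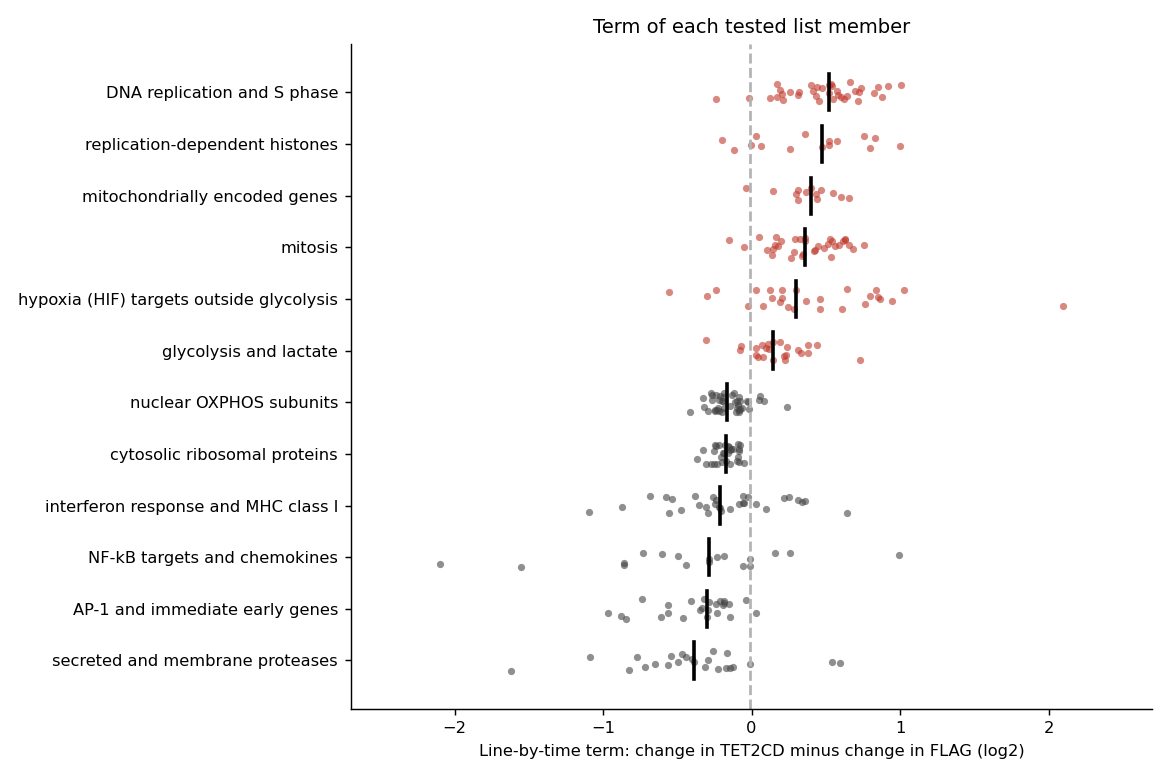
Term of each tested member (points) and the median (bar) for 12 lists; the dashed line marks the median of all tested genes, -0.01, and 2 points beyond the axis are not drawn. The median of DNA replication is 0.52 and that of secreted and membrane proteases -0.39, with all 8 libraries.

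Several genes outside the lists, named after their values were seen, had larger terms than most members. CALML3, a calmodulin-like protein of stratified epithelia, stood at 4.63, 3.06, 0.301 and 0.0611 CPM in FLAG, the last about the 3-count level of 0.0568 CPM, and at 37.4, 60.6, 28.5 and 11.8 CPM in TET2CD. It was higher in TET2CD on all days and by more on the late days (term 3.17, standard error 0.48, adjusted p = 0.0923, edgeR). GASK1B, a Golgi-associated kinase-like protein, went the same way, at 9.07, 4.61, 0.773 and 0.0611 CPM in FLAG and 17.2, 15.4, 8.59 and 1.49 CPM in TET2CD (term 2.33, adjusted p = 0.0923, edgeR). DESeq2 called both (adjusted p = 8.88e-06 for CALML3 and 0.00189 for GASK1B). The long noncoding RNA MIAT (term 1.27, range 0.73 to 1.75) and IGFBP2, which binds insulin-like growth factors (1.02, range 0.62 to 1.38), were also higher in TET2CD on every day and had a wider gap late.

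CLDN7, a tight junction claudin on the junction list, ran opposite. It stood at 8.15, 8.10, 22.03 and 36.1 CPM in FLAG and at 32.4, 41.1, 50.2 and 44.2 CPM in TET2CD. The lines did not overlap on the early days and came close on day 15, as FLAG cells approached the level that TET2CD cells already had (term -1.43, standard error 0.27, adjusted p = 0.173, edgeR; DESeq2 called it with adjusted p = 0.0222). The tubulin TUBB2B (-1.003, range -1.51 to -0.51) was also higher in TET2CD on the early days and close on day 15. It stood at 7.20, 17.1, 48.5 and 59.2 CPM in FLAG and at 22.5, 47.7, 100 and 62.0 CPM in TET2CD. Unlike CLDN7 it rose several-fold in TET2CD up to day 12 and then fell. LTBP3, which binds latent TGF-beta (-0.96), was higher in TET2CD on the early days and lower on the late days. HSPA1A, an inducible heat shock protein on the chaperone list whose reads may be shared with its near-identical copy, stood at 24.8, 24.6, 35.9 and 82.7 CPM in FLAG and at 31.4, 30.3, 24.2 and 40.3 CPM in TET2CD (term -1.13; DESeq2 adjusted p = 0.0468). ADIRF, an adipogenesis regulatory factor, was lower in TET2CD on all days, at 116 and 226 CPM on the late days in FLAG and 50.1 and 86.3 CPM in TET2CD (term -0.96).

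**Figure D5:**
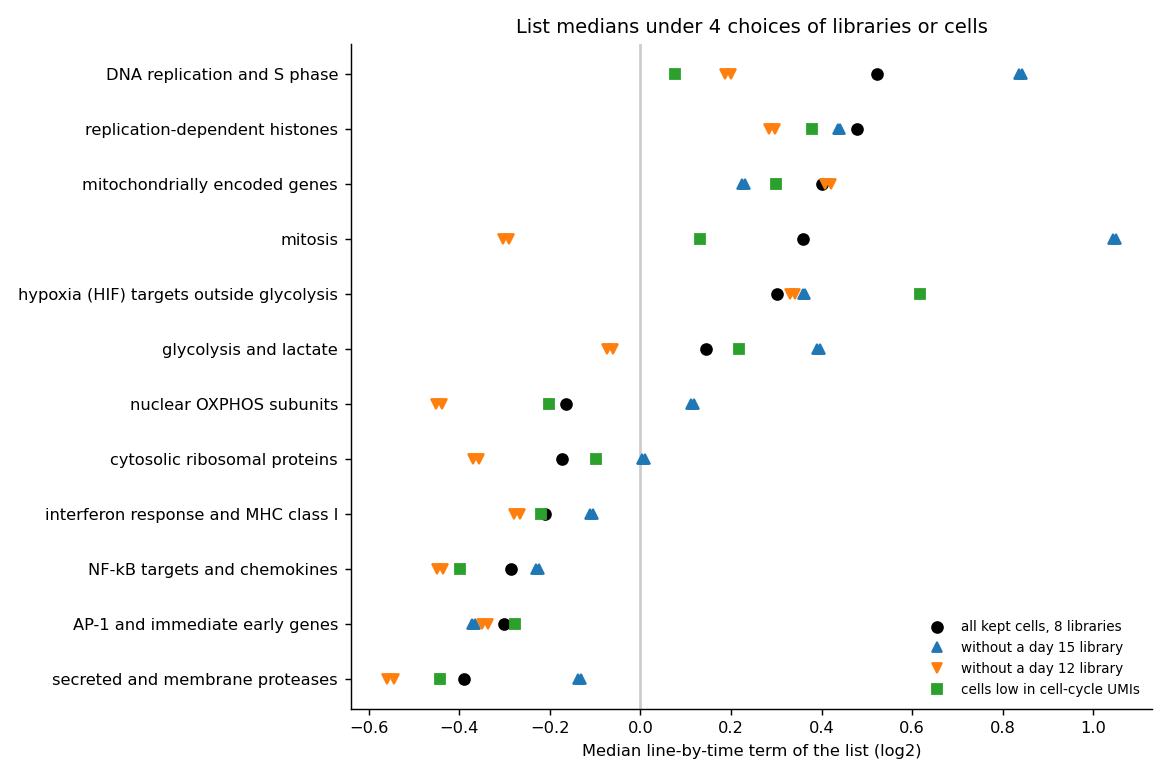
Median term of 12 lists with all kept cells and 8 libraries (circles), without a day 15 library (upward triangles, 1 per line), without a day 12 library (downward triangles) and with cells low in cell cycle UMIs (squares). Mitosis goes from 1.04 to -0.30 between the triangles, and the hypoxia targets are at 0.33 to 0.36 at the triangles and at 0.62 with low-cycle cells. Their medians without a day 9 library, 0.10 and 0.11, are not drawn.

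Bulk RNA of day 15 colonies, taken inside and outside the colony from each line, gave a separate reading of the end point but had no day 6 library of TET2CD and so no interaction. These are single libraries in TPM, a length-corrected share of all transcripts. NDUFA4L2 was at 9.34 TPM inside and 6.99 TPM outside in FLAG, and at 17.4 and 13.95 TPM in TET2CD, so both TET2CD libraries lay above both FLAG libraries, as in the day 15 single-cell libraries. PDK1 was at 7.96 and 8.88 TPM in FLAG and at 19.4 and 14.1 TPM in TET2CD. PLAUR was at 14.5 and 14.2 TPM in FLAG and at 21.6 and 10.8 TPM in TET2CD, and SERPINE2 at 20.7 and 22.8 TPM and at 35.2 and 16.95 TPM. For these 2 genes the TET2CD library from inside lay above both FLAG libraries and the one from outside below them, unlike the day 15 single-cell sums. Of the 37 replication genes, 1 had both TET2CD libraries above both FLAG libraries and 17 had both below, against 27.7% above and 20.3% below over all tested genes found in the bulk files. In the single-cell sums the median difference of this list on day 15 was 0.12 log2 units, with TET2CD higher. CDC6 was at 16.8 and 20.1 TPM in FLAG and at 8.15 and 15.3 TPM in TET2CD, and FAM111B at 5.75 and 6.24 TPM and at 2.08 and 5.16 TPM, both lower in TET2CD where the single-cell sums were higher. CLSPN was at 3.08 and 3.33 TPM in FLAG and at 1.02 and 2.97 TPM in TET2CD, likewise the reverse. Of the 34 mitosis genes none lay above and 15 below, and of the 15 histones none lay above and 7 below. Of the 25 AP-1 and immediate early genes 17 lay above and 2 below. Other lists with negative medians in the day 15 single-cell sums went either way in bulk. The ATF4 stress response (median -0.44) had 21 of 24 members above and 1 below. Integrins and matrix genes (-0.33) had 10 of 23 above and 3 below. Glycolysis genes (-0.22) had 15 of 24 above and 1 below. EMT genes (-0.61) and NF-kB targets and chemokines (-0.27) each had 6 of 19 above and 3 below, close to the shares of all genes. Proteases (-0.78) had 7 of 25 above, close to the 27.7% of all genes, and 3 below. Nuclear subunits of oxidative phosphorylation (-0.43) had 8 of 42 above and 18 below. NRF2 targets (-0.43) had 1 of 23 above and 8 below, and cytosolic ribosomal proteins (-0.40) had 0 of 31 above and 9 below. IER5 was at 4.81 and 6.27 TPM in FLAG and at 14.4 and 15.8 TPM in TET2CD, and JUNB at 62.5 and 62.7 TPM and at 66.5 and 73.0 TPM, again the reverse of the day 15 single-cell order. The same held for VIM, at 11.4 and 24.6 TPM in FLAG and at 41.6 and 179.7 TPM in TET2CD. CCND1 was at 73.9 and 87.0 TPM in FLAG and at 136 and 170.1 TPM in TET2CD, against 282 and 205 CPM on day 15 in the single-cell sums. Of the 27 hypoxia targets 19 lay above and none below, while their median difference on day 15 in the single-cell sums was 0.004 log2 units. These counts compare the lines at 1 day and say nothing of the change over time, and they were added after the other results were seen.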

How the data were processed

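Single-cell RNA (10x 3′ chemistry) of both lines on 4 days was counted by the authors with Cell Ranger 4.0 against GRCh38 (per the labels), and the deposited counts are UMIs per gene and cell barcode. TPM of the bulk libraries were deposited by the authors from RSEM with Bowtie. The labels name mm10 for these while the files carry human gene identifiers, so the bulk build is unsettled and only TPM values are given.

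Library sums took cells whose gene count was 200 to 4500, whose UMIs were 1000 to 20000 and whose mitochondrial share was 10% or less, with no doublet caller beyond the upper limits. Totals of 48186195 to 74185723 UMIs per library put the level of 3 counts at 0.0404 to 0.0623 CPM, which covers counting error only. edgeR 4.0.16 (R 4.3.3; filterByExpr by line and stage, TMM factors, quasi-likelihood F test, two-sided, Benjamini-Hochberg adjustment, threshold 0.05) fitted day, line and line by late stage, with 2 residual and 12.0 prior degrees of freedom. CPM of tested genes are scaled by TMM factors; those of marker sums, untested genes and the 3-count level are not. Differences between the lines per day used log2 CPM with a prior count of 1. Standard errors are the size of the term divided by the root of F. Changes within a line come from a fit with line and stage as 4 groups, without calls. With no replicate cultures, p-values rest on the spread between days, which the fit moderated toward that of other genes. DESeq2 1.42.0, filters, scalings, cell limits and left-out libraries served as alternatives. The script was tested on simulated data.

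Named were called genes with at least 8 mean CPM and line differences that did not overlap between stages, of which there was 1, the genes of the study, TET2 and list members. Genes outside the lists were taken from the 12 highest and 12 lowest terms among such genes without the call, or because their adjusted p was low, after their values were seen. The members and lists were chosen with earlier results of these data known. Coordinates come from GENCODE and promoters from RefSeq (GRCh38.p14). Values of 1 list member are not reported here.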

Additional observations from a re-analysis of the deposited data

Results flagged for a closer look

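The change of NDUFA4L2 from early to late days differed between the lines by 2.10 log2 units (edgeR's quasi-likelihood test, adjusted p = 0.0115), the one difference between groups that passed its test. It was higher in TET2CD on both late days and lower on both early days, with few UMIs on day 6. No group had the 4 samples needed to look for an outlying library.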

How the results depend on the processing

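The count of called genes rested on the fit and the libraries. It was 9 with DESeq2 (4 higher, 5 lower), 103 with no filter on low counts (58 and 45, many with few UMIs), 1 with upper-quartile factors, 0 with no day term (141 at an unadjusted p under 0.05), 4 with day as a number (2 and 2), 3 with every barcode and 3 with no upper limits (all 3 higher in each), 0 with a mitochondrial limit of 20% (1041 at an unadjusted p under 0.05), 2 without cells with a TET2 UMI (both higher) and 14 in cells low in cell-cycle UMIs (9 and 5), a choice made after seeing the data. With 1 library left out it ranged from 9 to 2279 (6 to 602 higher, 2 to 1677 lower). Leaving out a day 12 or day 15 library removes that day from the term and with it the spread between the late days, so the error then comes from the early days alone.

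NDUFA4L2 kept its sign throughout. It missed the threshold with no day term (2.13, adjusted p = 1), with day as a number (1.75, scaled to the 6 days between the stage means, adjusted p = 0.284) and with the mitochondrial limit of 20% (2.01, adjusted p = 0.0619, all edgeR). Leaving out 1 library gave 1.92 to 2.25, and NDUFA4L2 was not called without either day 9 library, as given above. Other terms changed sign as follows, and the causes were not tested. ZEB1 was -0.0604 with every barcode, -0.0149 with no upper limits, -0.0415 with the mitochondrial limit of 20% and -0.13 in low-cycle cells, and VEGFA was -0.013 with every barcode and -0.0527 with that limit. With day as a number SNAI1 was 0.0761 and NDRG1 -0.0153. In low-cycle cells CLSPN was -0.13, CXCL16 0.32 and DNMT1 -0.11. With 1 library left out VIM ranged from -0.91 to 0.23, ZEB1 from -0.26 to 0.30, FN1 from -0.0449 to 0.92, SNAI1 from -0.45 to 0.23, CTNNB1 from -0.24 to 0.32, VEGFA from -0.11 to 0.24, NDRG1 from -0.70 to 1.28, SLC2A3 from -0.13 to 0.88, MKI67 from -0.0121 to 1.17, FOXM1 from -0.42 to 1.40 and TET3 from -0.0476 to 0.54.

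The day term pairs the lines by day, and the labels give no replicate numbers for any other pairing. A level of 3 counts corresponded to 0.0404 to 0.0623 CPM, and the parts of counting error and of shifts between days in the errors were not separated.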
